A study of Mus musculus with 2 samples.

Results

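The genes described here carry out antigen presentation on major histocompatibility complex (MHC) class I in G1E cells. They are B2m, H2-D1, H2-K1, H2-T23, Tap1, Tap2, Tapbp and the regulator Nlrc5, together with Cd74, the invariant chain of the class II route. The 9 genes were taken by name, and each matched 1 row among the 43346 annotated genes of the gene tables. G1E is an immortalised mouse line labelled a Gata1- erythroid progenitor, male, postnatal, with an age of 0 days. Gata1 encodes a transcription factor of red cell maturation. Its own RNA went against a plain reading of that label: it stood at 88.2 TPM (replicate 1) and 61.4 TPM (replicate 2), on 3748 and 5037 counts. A gene-level count does not show which part of the gene was read or whether protein is made, and the altered part of the gene is not given in the sources used here. There was 1 group, untreated as far as the labels say, with 2 poly(A) RNA-seq libraries labelled biological replicates 1 and 2 of the same biosample. There was no second condition, so no test between groups exists and all values are descriptions. Nothing beyond the replicate number shows separate cultures, and the spread between the libraries may be technical.

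Class I molecules show peptides from inside the cell to CD8 T cells. The proteasome cuts proteins, the TAP1 and TAP2 transporter carries the peptides into the endoplasmic reticulum, and tapasin, encoded by Tapbp, holds the transporter to an empty heavy chain until a peptide is bound. A heavy chain such as H2-K, H2-D or H2-T23 pairs with the light chain beta-2 microglobulin, encoded by B2m, on its way to the surface. NLRC5 is the transactivator of class I genes, as CIITA is for class II, and both act through a promoter module of X and Y boxes bound by RFX, CREB/ATF and NF-Y proteins.

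The promoters of the class I genes are shown first, because parts of the H2-D1 and H2-K1 promoters were alike and their RNA levels very different. Upstream windows, the 250 bases before each RefSeq start on GRCm38.p6, were found for 6 of the 9 genes, in 7 windows, not for Tap2, Nlrc5 and Cd74. Both windows of H2-K1 are among these and largely overlap. Windows were compared by local alignment, which keeps only their best-matching part and leaves the rest of the 250 bases uncompared. Over that part, the H2-D1 window and the H2-K1 window whose start lies further upstream were identical at 161 of 177 bases, or 91.0%. Each holds the letters TGACG (the core of an X2 box) followed after 20 bases by ATTGG (a Y box, CCAAT on the other strand), shown here in capitals, 5′ to 3′ on the strand of the gene.

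H2-D1, chr17:35262993-35263022, plus strand: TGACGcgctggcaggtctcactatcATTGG
H2-K1, chr17:34000359-34000388, minus strand: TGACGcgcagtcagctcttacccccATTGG
B2m, chr2:122147609-122147638, plus strand: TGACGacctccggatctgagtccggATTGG

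The stretches of H2-D1 and H2-K1 were identical at 23 of 30 bases, and those of H2-D1 and B2m at 12 of 30. These counts include the box letters by which the stretches were picked, which are identical by construction. The stretch lies 101 to 72 bases before the start of H2-D1 and 41 to 12 bases before that start of H2-K1. The pair of boxes at this spacing was noticed in these windows and then counted. It occurred, on either strand, in 30 of 32851 windows of all genes, or 0.0913%, and in 4 of the 7 windows of the genes described here. These 4 windows belong to 3 genes, since the overlapping windows of H2-K1 hold the same site. H2-D1 and H2-K1 also share a GGGATTC element of the kind bound by NF-kappa B, in capitals below. There 29 of 30 bases were identical, the letters of the element, by which the stretch was picked, included.

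H2-D1, chr17:35262913-35262942, plus strand: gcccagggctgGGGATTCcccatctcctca
H2-K1, chr17:34000439-34000468, minus strand: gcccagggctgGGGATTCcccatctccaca

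Of the motifs searched on both strands, CCAAT was in 7 of the 7 windows and in 33.8% of all windows, and TGACG in 5 of 7 and in 17.8%. Both H2-K1 windows are counted here, so a site in their overlap counts in each. GGGATTC was in 3 of 7 and in 2.54%, GAAA followed after any 2 bases by GAAA (an interferon response pattern, in B2m and H2-T23) in 2 of 7 and in 2.98%, and AGCAAC in 0 of 7 and in 12.2%. Other spellings of interferon response elements were not searched for, so the other windows, those of H2-D1 and H2-K1 among them, may hold such elements. The whole upstream window of B2m, the most abundant of the genes, and that of H2-K1, among the least abundant, follow with the motifs in capitals. A match of letters shows no binding.

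B2m, chr2:122147437-122147686, plus strand: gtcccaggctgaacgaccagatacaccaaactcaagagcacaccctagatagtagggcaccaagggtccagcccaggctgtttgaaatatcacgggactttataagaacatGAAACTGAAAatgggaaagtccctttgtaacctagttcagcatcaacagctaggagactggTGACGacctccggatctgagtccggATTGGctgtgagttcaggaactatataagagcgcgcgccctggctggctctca
H2-K1, chr17:34000348-34000597, minus strand: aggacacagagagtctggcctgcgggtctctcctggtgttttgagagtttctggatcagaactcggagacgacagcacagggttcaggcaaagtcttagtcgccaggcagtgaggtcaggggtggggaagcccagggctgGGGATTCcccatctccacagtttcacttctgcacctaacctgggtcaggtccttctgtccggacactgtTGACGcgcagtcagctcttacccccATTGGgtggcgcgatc

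Levels are in TPM, which divides estimated counts by effective length and scales each library to the same total, so they can be set beside each other between genes. The gene counts summed to 31633573 in replicate 1 and 56978193 in replicate 2. The gap between length and effective length puts the reads at 36 nt for replicate 1 and 55 nt for replicate 2. In bulk RNA, fewer cells of a type and less RNA per cell cannot be told apart. Of the erythroid progenitor markers, 12 of 12 reached 1 TPM in each library, with sums of 4508 and 5835 TPM in replicates 1 and 2. Highest by the mean of the libraries were the alpha-globin genes Hba-a2 (757 and 2019 TPM) and Hba-a1 (496 and 1683 TPM) and the erythroid repressor gene Gfi1b (764 and 363 TPM); in replicate 1 Gfi1b was above both globin genes. Of the 12 markers of antigen-presenting cells, 8 of lymphocytes and 6 of stroma, 0 reached 1 TPM in both. Their sums were 4.30 and 1.95 TPM, 2.70 and 0.08 TPM, and 1.36 and 0.05 TPM in replicates 1 and 2, and their part in the class I levels was not tested. The highest were Cd3e with 1.68 and 0.02 TPM, Adgre1 with 0.31 and 1.18 TPM and Zbtb46 with 1.12 and 0.19 TPM. In replicate 2, Pax5, Ly86, Cd4, Cd8a, Cd3d, Klrb1c, Ncr1, Pdgfra and Dcn had 0 counts. Their counts in replicate 1 were 4, 1, 13, 5, 4, 10, 6, 17 and 2, in that order. Flt3 had 89 counts in replicate 1 and 3 in replicate 2, Col1a1 58 and 1, and Col1a2 40 and 5. Itgax had 5 and 2 counts, Nkg7 and Trbc1 each 0 and 1, and Pdgfrb 7 and 3. The libraries stood apart at low levels: 18193 protein-coding genes had a count in replicate 1 and 13739 in replicate 2, although replicate 2 was the deeper. The 7735 without a count in replicate 2 had a median of 0.04 TPM in replicate 1. This median includes the 2949 that had no count in either library, which lower it. The part of this in the counts of 0 given here for replicate 2 was not tested.

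Of the 9 genes, 7 reached 1 TPM in each library, a level that 42.5% of protein-coding genes and 24.2% of all annotated genes reached. These shares are the background for the count of every list given here. The median over the 9 was 8.46 TPM, beside 0.365 TPM over all protein-coding genes and 23.5 TPM over the 9118 that reached 1 TPM in both. The exceptions were H2-K1, which passed in replicate 2 alone, and Nlrc5. In order of mean level the genes ran B2m, H2-D1, Tapbp, Tap2, Tap1, H2-T23, Cd74, H2-K1 and Nlrc5. For 6 of the 8 neighbouring pairs in this order the values of the 2 libraries did not overlap. Tap1 and H2-T23 overlapped, as did H2-K1 and Nlrc5, and Cd74 stood apart from H2-K1 only by 1.21 TPM against 1.20 TPM in their nearest libraries.

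**Figure D1:**
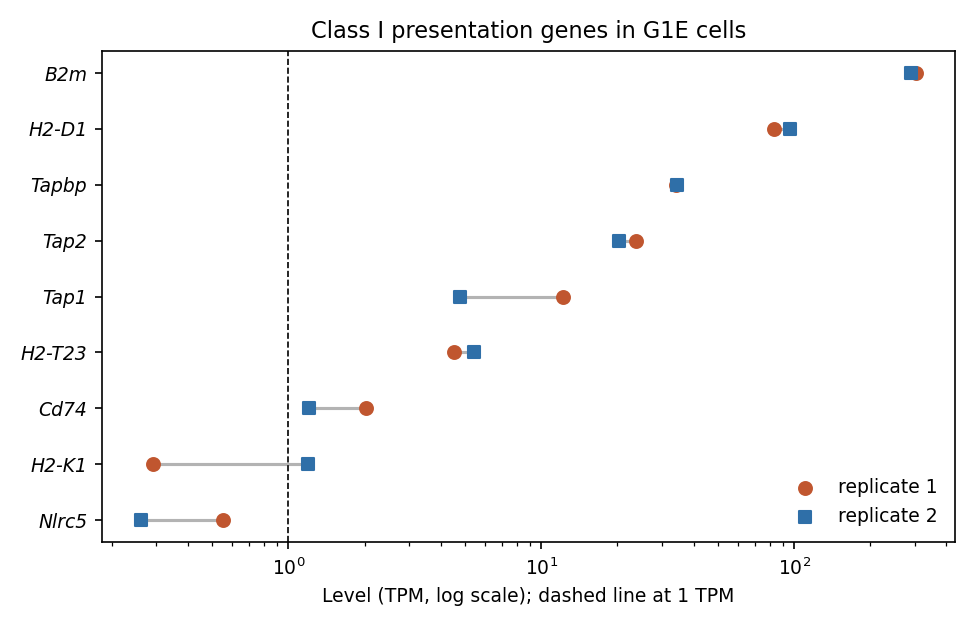
Level of each class I presentation gene and of Cd74 in TPM on a log axis, with replicate 1 as circles and replicate 2 as squares joined by a line, and a dashed line at 1 TPM. B2m lies at 303 and 290 TPM, and Nlrc5 lies under 1 TPM in both; H2-K1 and Tap1 show the widest gaps between libraries.

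The light chain gene B2m had 303 TPM in replicate 1 and 290 TPM in replicate 2, on 5843 and 10586 counts. Its mean was 296.4 ± 9.59 TPM (SD, n = 2), above 98.2% of protein-coding genes. B2m (ENSMUSG00000060802.8) lies on the plus strand of chromosome 2, from 122147686 to 122153083 of GRCm38, and has 1 transcript in the tables, B2m-201 of 860 nt. None of its 825 stretches of 36 bases occurs in another gene, so no read of that length from it matches another annotated transcript. The span of B2m lies within that of Patl2 on the other strand, with 0 exon bases shared. The protein-coding genes nearest to it in log2(TPM + 1) over the 2 libraries, of 21318 compared, were Limd2, Ppp1cc and Ppan, at distances of 0.039, 0.054 and 0.060.

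H2-D1 was the leading heavy chain gene of those listed here. It had 83.0 TPM in replicate 1 and 96.3 TPM in replicate 2, on 3562 and 7978 counts, with a mean of 89.7 ± 9.43 TPM (SD, n = 2). The gene (ENSMUSG00000073411.7) lies on the plus strand of chromosome 17 from 35262730 to 35267499. Its full-length coding transcript H2-D1-202 of 2102 nt took 86.8% ± 0.33 of the level (SD, n = 2), and its protein-coding transcripts together took 99.8% ± 0.13 (SD, n = 2).

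H2-K1, the second classical heavy chain gene, was far lower. It had 0.29 TPM in replicate 1 and 1.20 TPM in replicate 2, on 6.91 and 36.4 expected counts. The authors' credibility intervals around a posterior mean, whose level the sources do not state, ran from 0.395 to 1.39 TPM and from 0.912 to 1.89 TPM. The interval of replicate 1 does not contain the deposited TPM, and the posterior mean there was 0.87 TPM. This is not particular to H2-K1: the deposited TPM also lay outside the interval for B2m in both libraries and for H2-D1 in replicate 2. H2-K1 (ENSMUSG00000061232.11) lies on the minus strand of chromosome 17 from 33996017 to 34000347, and its start is 1262383 bp from that of H2-D1. H2-K1 over H2-D1 was -6.02 in replicate 1 and -5.47 in replicate 2 on the log2(TPM + 1) scale, a mean of -5.75 ± 0.39 (SD, n = 2), or 53.7-fold lower; the pseudocount of 1 makes this smaller than the ratio of the levels. Its full-length coding transcript H2-K1-201 of 1605 nt was assigned 0 counts in both libraries. The counts lay on other transcripts, led in share by the processed transcript H2-K1-204 of 480 nt at 54.0% ± 1.34 (SD, n = 2), and protein-coding transcripts held 0 and 5.93 counts.

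The class I heavy chains are close paralogs, so the part of H2-K1 that reads could tell apart was measured. The coding sequences of H2-K1-201 and H2-D1-202 were identical at 985 of 1077 aligned bases, or 91.5%, with a longest shared run of 91 bases. Still, 807 of the 1072 windows of 36 bases in the H2-K1 coding sequence occur in no other gene, and 957 of 1053 windows of 55 bases. Over all transcripts, 17.6% of the 36-mers and 7.67% of the 55-mers of H2-K1 were shared with another gene, beside 21.8% of the 36-mers of H2-D1. Coding bases 501 to 560 of H2-D1 and 492 to 551 of H2-K1 are the stretch where they differ most, with the 15 differing bases in capitals.

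H2-D1, chromosome 17: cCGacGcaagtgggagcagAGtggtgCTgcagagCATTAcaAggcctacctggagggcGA
H2-K1, chromosome 17: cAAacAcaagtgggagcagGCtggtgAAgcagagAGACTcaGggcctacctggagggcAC

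The 60 bases from coding base 434 of H2-D1 and from 425 of H2-K1 are the same in both, so a read from there fits either gene. They read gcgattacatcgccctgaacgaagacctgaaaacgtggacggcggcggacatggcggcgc. These counts use the reference alleles; the strain of the line is not given in the sources used here, and whether allele differences moved reads between the heavy chains was not tested.

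H2-T23, the mouse Qa-1 gene, whose product presents leader peptides of other class I chains to natural killer cell receptors, had 4.50 TPM in replicate 1 and 5.41 TPM in replicate 2, on 178 and 395 counts. Its mean was 4.96 ± 0.64 TPM (SD, n = 2), and it lies on the minus strand of chromosome 17 from 36029773 to 36032855, where the antisense gene A930015D03Rik (6.96 and 7.63 TPM) overlaps its span with 0 exon bases in common. H2-D1 exceeded H2-T23 by 3.93 ± 0.0059 on the log2(TPM + 1) scale (SD, n = 2), 15.2-fold. H2-K1 was lower than H2-T23 by a log2 difference of -1.82 ± 0.39 (SD, n = 2). The coding transcript H2-T23-201 took 64.7% ± 2.73 of the H2-T23 level and the retained-intron transcript H2-T23-204 took 26.8% ± 2.37 (SD, n = 2 for both).

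Among the other class I and class I-like chains listed here, 2 of 25 reached 1 TPM in each library, with a list median of 0.13 TPM. H2-T22, whose product is a ligand of gamma-delta T cells, had 17.2 and 12.8 TPM in replicates 1 and 2. Other genes hold 63.5% of its 36-mers, so its level is uncertain. H2-T10, at 0.80 and 0.72 TPM, holds 42.6% of them, and A930015D03Rik, at 6.96 and 7.63 TPM, holds 27.4%. H2-T24 had 1.19 and 1.97 TPM. H2-T3 had 2.70 TPM on 34 counts in replicate 1 and 0 counts in replicate 2, where a count of 0 allows up to 0.050 TPM (3 counts, for counting error only). Mill2 had 0 counts in both, and H2-M9 had 1 count in replicate 2 alone.

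Over the 19 heavy chain genes with H2 symbols that were listed here, levels summed to 113 and 119 TPM in replicates 1 and 2. Other genes with H2 symbols, such as H2-Q5 and H2-M10.2, were not listed and are not in the sum. H2-D1 made up 77.4% ± 5.37 of the sum, H2-T22 13.0% ± 3.20, H2-T23 4.28% ± 0.40 and H2-K1 0.634% ± 0.53 (SD, n = 2 for all). B2m stood at 2.57 ± 0.17 times the sum (SD, n = 2). Over H2-K1, H2-D1 and H2-T23 alone, B2m was higher by 1.63 ± 0.21 on the log2(TPM + 1) scale (SD, n = 2).

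**Figure D2:**
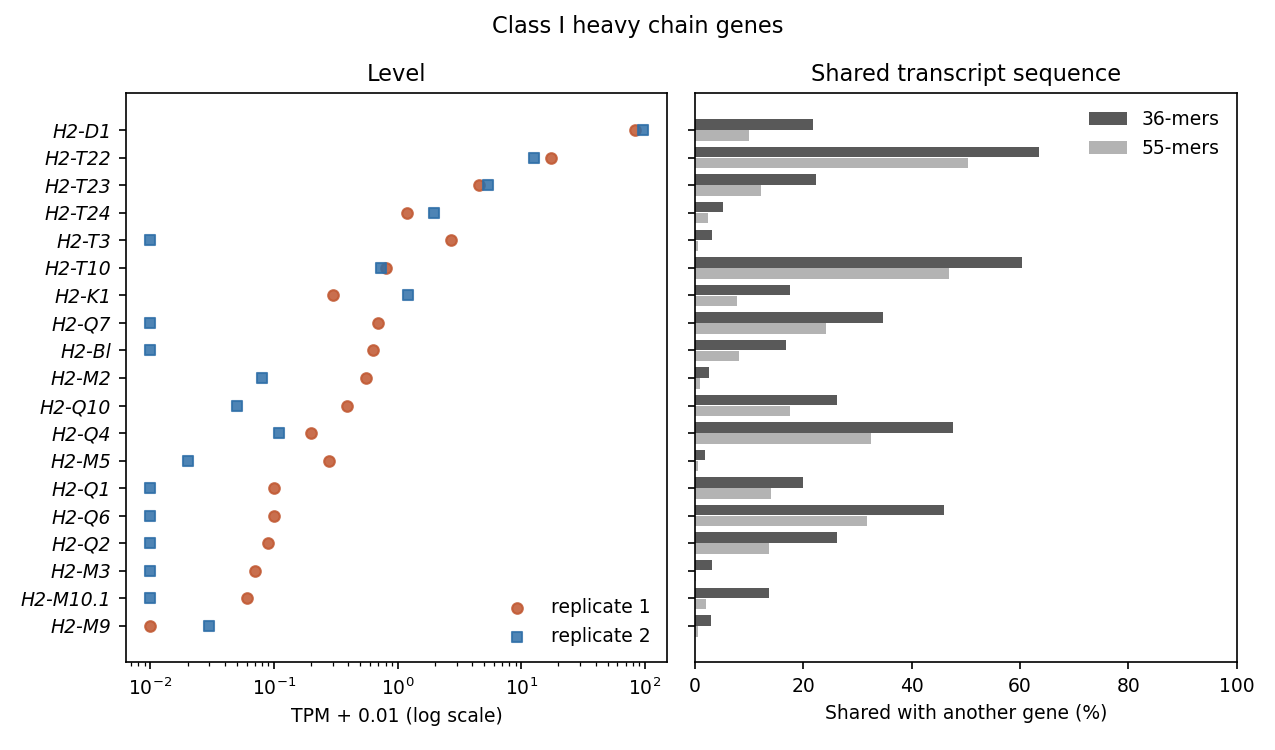
Left, TPM + 0.01 of 19 class I heavy chain genes on a log axis in replicate 1 (circles) and replicate 2 (squares), with genes at 0 TPM drawn at 0.01; right, bars of the percentage of each gene's transcript 36-mers and 55-mers that occur in another gene. H2-D1 leads in both libraries with 21.8% of 36-mers shared, and H2-K1 lies below H2-T23 and H2-T24 with 17.6% of its 36-mers shared.

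The genes of the peptide transporter differed in level. Tap2 had 23.8 TPM in replicate 1 and 20.4 TPM in replicate 2, on 1372 and 2188 counts, a mean of 22.1 ± 2.41 TPM (SD, n = 2). Tap1 had 12.2 TPM in replicate 1 and 4.77 TPM in replicate 2, on 517 and 500 counts, a mean of 8.46 ± 5.23 TPM (SD, n = 2). Tap1 was lower than Tap2 in both libraries, by a log2(TPM + 1) difference of -0.91 in replicate 1 and -1.89 in replicate 2. Tap1 (34187553 to 34197225) and Tap2 (34203527 to 34216321) lie side by side on the plus strand of chromosome 17, with the immunoproteasome gene Psmb8 between them.

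Most of the Tap2 level was not assigned to a coding transcript. The retained-intron transcript Tap2-202 of 2561 nt took 85.5% ± 7.38 and the full-length coding Tap2-201 of 3442 nt took 7.16% ± 7.18 (SD, n = 2 for both). The coding transcripts of Tap2 together held 3.77 TPM in replicate 1 and 1.88 TPM in replicate 2, beside 5.47 and 4.25 TPM for those of Tap1. By these assignments, Tap1 was the higher gene over coding transcripts in both libraries. In replicate 2, 1.17 TPM of the Tap2 value was that of Tap2-204, of 378 nt, on 17.2 counts. How well reads of these lengths tell transcripts of the same gene apart was not tested. Of the 36-mers of Tap2, 13.5% occur in another gene, mostly in the opposite-strand RNA Gm15821, which overlaps 533 of its 3781 exon bases and stood at 0.46 TPM in each library. A second antisense gene, Gm20496, overlaps 165 bases and had 0 counts. The sources do not say whether strand was used in counting, so reads of a gene and an overlapping antisense RNA may not have been told apart.

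For Tap1 the transcripts assigned differed between libraries. Tap1-203, a retained-intron transcript of 757 nt, took 47.8% in replicate 1 and 0% in replicate 2, while Tap1-206, a coding transcript of 2953 nt, took 29.5% and 52.0%. The effective length of the gene was 1819 nt in replicate 1 and 2311 nt in replicate 2, and TPM, which divides by it, differed more than the counts did. Tap1 starts 211 bp from Psmb9, which runs on the other strand, and 212 exon bases of the pair overlap.

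The tapasin gene was close to equal in TPM in the libraries. Tapbp had 34.0 TPM in replicate 1 and 34.5 TPM in replicate 2, on 1902 and 2849 counts, a mean of 34.3 ± 0.35 TPM (SD, n = 2). It lies on the plus strand of chromosome 17 from 33915899 to 33929292. Tapbp exceeded Tap1 by 2.02 ± 0.86 on the log2(TPM + 1) scale (SD, n = 2). The coding transcript Tapbp-201 took 79.7% in replicate 1 and 54.8% in replicate 2, where the processed transcript Tapbp-202 took 28.2% against 0% in replicate 1. The antisense gene Gm19412, at 1.06 and 1.60 TPM, overlaps 24.9% of the exon bases of Tapbp, and Zbtb22, at 24.8 and 23.2 TPM on the same strand, overlaps 4.11%.

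**Figure D3:**
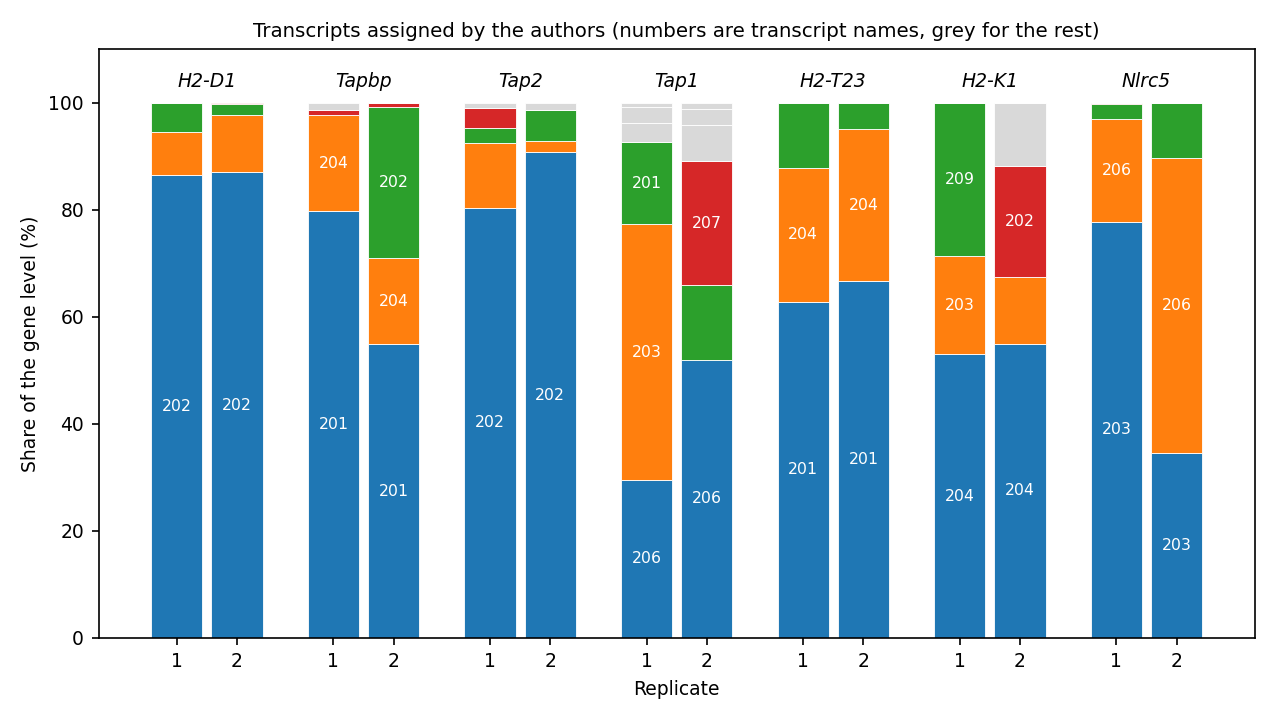
Percentage of each gene's TPM that the deposited tables assign to each transcript, 1 bar per library and 7 genes, with colours running from the highest mean share upward and the larger segments numbered by transcript. H2-D1-202 and Tap2-202 hold over 80% in both libraries, while the leading transcript of Tap1 and of Nlrc5 differs between libraries.

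The regulator Nlrc5 was under 1 TPM in both libraries, at 0.55 TPM (21 counts) in replicate 1 and 0.26 TPM (20 counts) in replicate 2. It lies on the plus strand of chromosome 8 from 94434356 to 94527272, and the opposite-strand gene 9330175E14Rik, at 0.33 and 0 TPM, overlaps 78 of its 8493 exon bases. The counts lay mostly on the retained-intron transcripts Nlrc5-203 and Nlrc5-206, and the coding Nlrc5-201 of 6945 nt held 2.47 and 8.57 expected counts. B2m exceeded Nlrc5 by 7.73 ± 0.16 on the log2(TPM + 1) scale (SD, n = 2), and by 9.26 with a pseudocount of 0.1 and 5.80 with 5. Of the list of factors that bind the X and Y boxes and their acetyltransferase coactivators Crebbp and Kat2b, 10 of 10 reached 1 TPM in each library, and their median was 31.5 TPM. Atf1 had 138 and 65.0 TPM, and the NF-Y subunit genes Nfyc and Nfya had 121 and 42.7 TPM and 88.1 and 22.5 TPM in replicates 1 and 2. All 3 had more TPM in replicate 1. By the scaled counts used below, the log2 ratios of replicate 2 over replicate 1 were only -0.16 for Atf1, -0.58 for Nfyc and -1.46 for Nfya.

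Cd74, which guards the peptide groove of class II molecules, had 2.03 TPM in replicate 1 and 1.21 TPM in replicate 2, on 56 and 64 counts, all on Cd74-201. It lies on the plus strand of chromosome 18 from 60803848 to 60812652, and the microRNA gene Mir5107, at 0 counts, shares 12 exon bases with it. B2m exceeded Cd74 by 6.84 ± 0.28 on the log2(TPM + 1) scale (SD, n = 2). Of the 15 class II genes measured, 1 reached 1 TPM in both libraries, Ifi30, a lysosomal thiol reductase, at 74.7 and 37.5 TPM. The list median was 0.11 TPM. The class II chain gene H2-Ab1 had 4 and 1 counts, H2-Ob 1 and 1, and Ctss, the protease that trims the invariant chain, 0 and 4. Cd80, a costimulatory ligand, had 0.77 TPM in replicate 1 and 3.49 TPM in replicate 2. Cd86 had 13 counts in replicate 1 and 0 in replicate 2. Cd74 over H2-Ab1 was 1.18 ± 0.14 on the log2(TPM + 1) scale (SD, n = 2), a value that rests on few H2-Ab1 counts and was 2.87 with a pseudocount of 0.1 and 0.36 with 5. The genes nearest to Cd74 in level were Chrnb1, Catsper2 and Lca5 at distances of 0.027, 0.031 and 0.034, and those nearest to H2-K1 were Zfp994, P2ry10b and Lrguk at 0.036, 0.045 and 0.060.

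Genes that supply and load peptides were measured next. Of the peptide loading partners 10 of 10 reached 1 TPM in each library, and their median was 95.8 TPM. Calr, the chaperone calreticulin, had 467 and 353 TPM, Hspa5 had 144 and 142 TPM, and Pdia3, the thiol oxidoreductase of the loading complex, had 102 and 157 TPM in replicates 1 and 2. Of the immunoproteasome and PA28 genes 4 of 5 reached 1 TPM in both, with wide differences among the catalytic subunits that replace constitutive ones. Psmb8 had 0 counts in replicate 1, which allows up to 0.091 TPM, and 1 count in replicate 2. Psmb9, the gene beside Tap1, had 5.73 TPM in replicate 1 and 1.18 TPM in replicate 2. Psmb10 had 19.97 and 27.02 TPM, above 78.7% of protein-coding genes by its mean.

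Each inducible subunit was below its constitutive counterpart on the log2(TPM + 1) scale in both libraries. Psmb8 over Psmb5 was -7.10 ± 0.94, Psmb9 over Psmb6 was -5.98 ± 1.37 and Psmb10 over Psmb7 was -2.47 ± 0.079 (SD, n = 2 for all). With Psmb8 at 0 and 1 counts, its value is set by the pseudocount, and was -10.2 with 0.1 and -4.84 with 5. The constitutive Psmb5 had 85.8 and 223 TPM, Psmb6 217 and 268 TPM and Psmb7 120 and 149 TPM. The PA28 activator genes were high, with Psme1 at 273 and 289 TPM and Psme2 at 143 and 233 TPM, and Psme3 of the constitutive list at 177 and 185 TPM.

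The list of interferon and NF-kappa B signalling genes holds activators of class I and also Socs1, an inhibitor of interferon signalling, and Irf2, an antagonist of Irf1. Of its 16 genes, 14 reached 1 TPM in each library, and the list median was 20.8 TPM. Rela, an NF-kappa B subunit, had 78.7 and 41.7 TPM, the kinase gene Jak1 had 44.4 and 44.3 TPM, and the receptor gene Ifnar2 had 40.9 and 29.3 TPM. Irf8 had 0.35 and 0.01 TPM, and Irf1, which missed the threshold narrowly, had 2.08 and 0.99 TPM (named after its value was seen).

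Of 19 interferon-stimulated genes, 4 reached 1 TPM in both libraries and the list median was 0.18 TPM. Irgm1 and Igtp, GTPases of the immunity-related family, had 26.6 and 24.6 TPM and 9.78 and 8.28 TPM, and Bst2, tetherin, had 10.3 and 18.6 TPM. Ifitm3 had 0 counts in both libraries, which allows up to 0.200 and 0.106 TPM, and Gbp4 had 3 counts in replicate 1 and 0 in replicate 2. Of 10 ligands of natural killer cells and checkpoints, 5 reached 1 TPM in both, near the share of 42.5% over all protein-coding genes. Cd47, the signal against phagocytosis, had 42.6 and 96.3 TPM, Nectin2 had 30.6 and 17.8 TPM and Pdcd1lg2, PD-L2, had 1.57 and 4.35 TPM. Raet1d had 3 and 2 counts and Raet1e had 5 and 5.

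**Figure D4:**
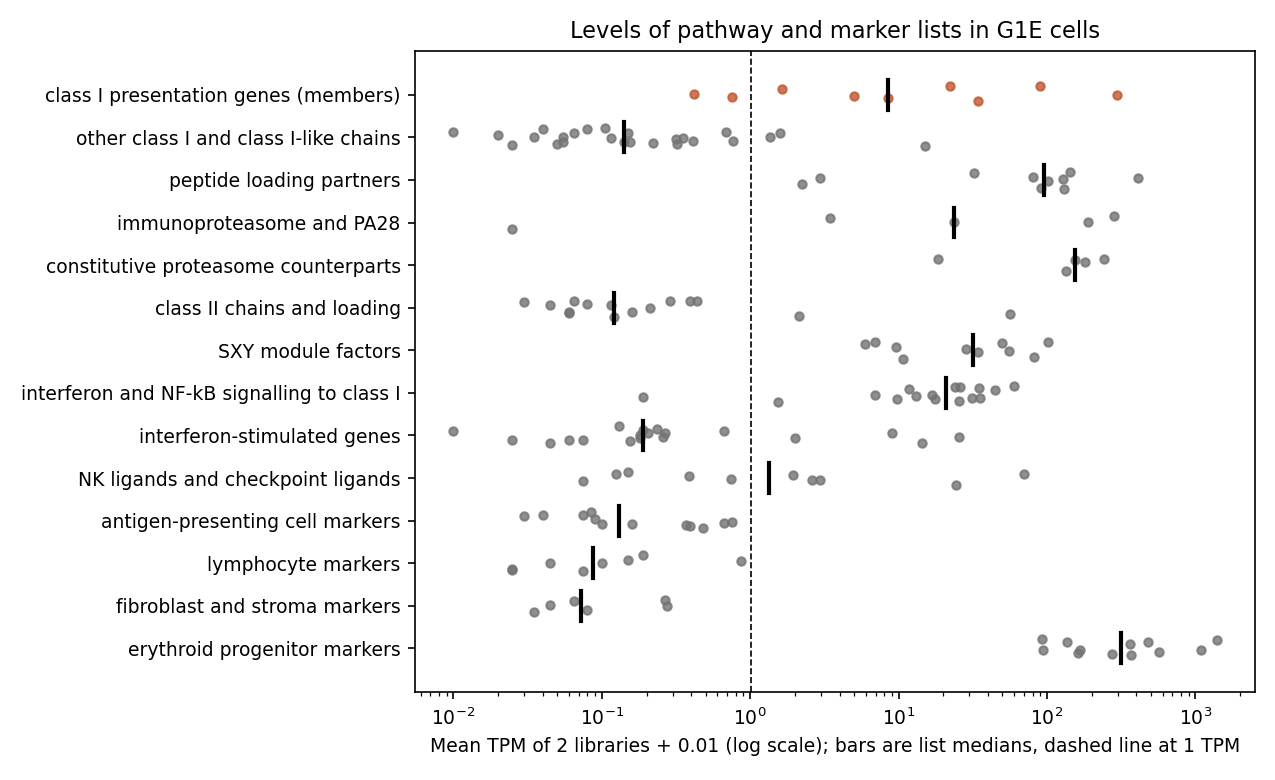
Mean TPM of 2 libraries + 0.01 of every gene on each list, on a log axis, with list medians as bars and a dashed line at 1 TPM. The class I presentation genes (top row) spread from under 1 TPM to 296 TPM, the loading partners have a median of 95.8 TPM, and the class II and interferon-stimulated lists have medians of 0.11 and 0.18 TPM.

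The libraries were also compared by scaled counts. Of 12414 genes with at least 50 counts in total, 29.6% were apart by 2-fold or more in either direction, and of the 7 genes described here that were among them, Cd74 included, 0 were; with 1 library against 1 there is no p-value. Their log2 ratios of TMM-scaled counts, replicate 2 over replicate 1, were -0.04 for B2m, 0.26 for H2-D1, 0.25 for H2-T23, -0.23 for Tap2 and -0.32 for Tapbp; with DESeq2 size factors those of B2m and Tap2 changed sign, to 0.20 and 0.016, as the median of all genes tested moved to 0.27 from 0.03 with TMM. Tap1 at -0.95, just inside 2-fold, and Cd74 at -0.70 were the lowest of the 7, and 13.9% and 19.8% of all genes tested were lower than these. Psmb9, the neighbour of Tap1, was at -1.87. H2-K1 and Nlrc5 had under 50 counts and were not compared. In TPM, Tap1 was 2.55-fold higher in replicate 1.

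**Figure D5:**
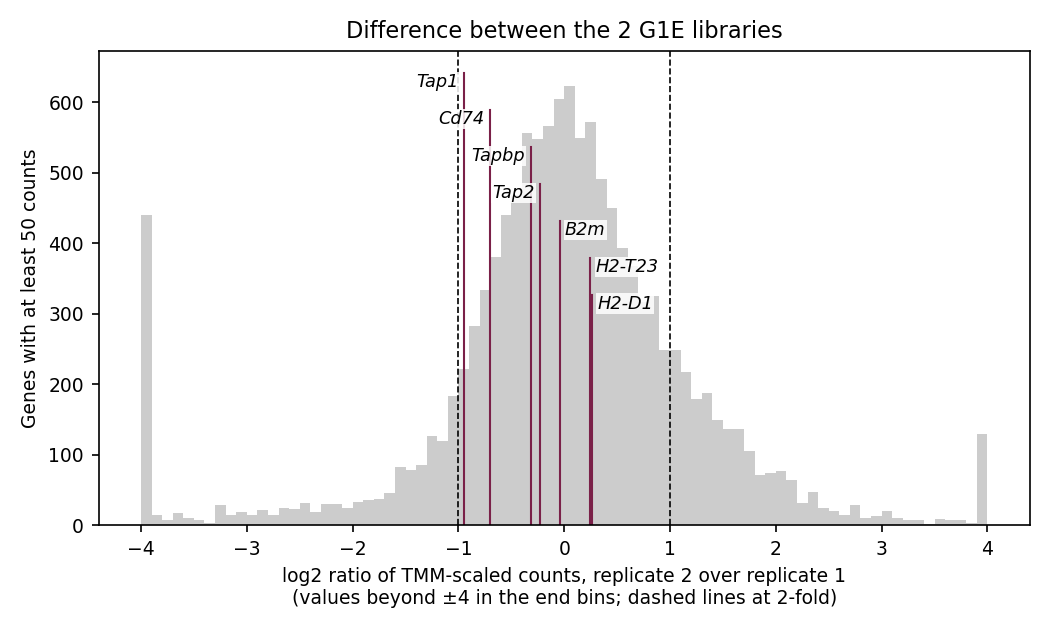
Histogram of the log2 ratio of TMM-scaled counts, replicate 2 over replicate 1, for 12414 genes with at least 50 counts, with values beyond 4 in the end bins, dashed lines at 2-fold and a vertical line for each of the 7 genes tested. The 7 lines lie between -0.95 and 0.26, inside the dashed lines.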

How the data were processed

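Gene and transcript tables were deposited for each of 2 libraries. Per the deposited notes, they derive from transcriptome alignments to mm10 with gene annotation M4; aligner, quantifier and strand use: not given in the sources used here. Values the authors deposited were expected counts (estimated reads, not normalized), TPM, FPKM, a posterior mean of TPM with interval bounds (here a signal column) and, in the transcript tables, the percent of each gene's TPM per transcript. Symbols and positions came from GENCODE M21 of GRCm38, which matched 42462 of 43346 gene identifiers. Entries naming no gene held 0.0363% and 0.00942% of the counts of replicates 1 and 2 and were left out.

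Expected counts were rounded and scaled with TMM in edgeR 4.0.16 (R 4.3.3; factors 0.982 and 1.02, default expression filter), with 0.5 added. This ratio was tested on simulated data. Apart from 200 changed genes, the simulation gave both libraries the same mean levels, and it did not model read length. It cannot show how the ratio behaves where libraries differ as these do. DESeq2 1.42.0 gave alternative size factors. Shared sequence and coding identity came from GENCODE M21 transcripts, whose versions differ from M4, with Python 3.11.15. Promoters are RefSeq's. Protein sequences were not used here, so coding DNA was compared instead. Named genes were the 9 genes, up to 3 highest and 2 lowest (under 1 TPM) of 13 lists, genes of 12 pairs, genes overlapping a member (1 microRNA gene at 0 is left out) and the 3 nearest in level; other marker genes, Gata1, Irf1, Irf2, Socs1, Crebbp and Kat2b were named after their values were seen. Members and lists were chosen with earlier results of these data known. Alternatives were scaling, threshold, pseudocount, filter and single libraries.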

Additional observations from a re-analysis of the deposited data

How the results depend on the processing

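No paired analysis was possible because there is 1 group and no contrast. The count of 7 expressed genes became 4 at a threshold of 5 TPM, and lay between 7 and 8 under 0.5 TPM, 10 counts, rescaled TPM, posterior means (added after seeing the data) and with either library alone. The median level, 8.46 TPM, was 5.41 and 12.2 TPM in the single libraries. Of the 12 fixed pairs, 11 were apart by 2-fold in both libraries, between 9 and 11 under other pseudocounts and scalings and 11 or 12 in single libraries, and no pair turned round under these. Counting only the levels assigned to coding transcripts, which was not among these alternatives, puts Tap1 above Tap2. The H2-K1 over H2-D1 log2 difference was -6.97 with a pseudocount of 0.1 and -4.04 with 5; other pairs with a gene near 0 moved likewise. The count of 0 genes apart between libraries became 1 with TPM and with rescaled TPM (Tap1 in both) and 1 with no filter on low counts (H2-K1, on few counts). DESeq2 size factors kept it at 0 and moved the median ratio of all genes tested to 0.27, beside 0.03 with TMM. The ratio of Tap1 was then -0.71, and those of B2m and Tap2, neither of them 2-fold, changed sign. B2m was also above 0 with total counts (0.0084), rescaled TPM (0.10) and no filter (0.21), and Tap2 with no filter (0.023). The ratio of Tapbp, -0.32 with TMM, was 0.021 with TPM and 0.19 with rescaled TPM. Leaving out a library gives no spread for the order of levels or for agreement of leading transcripts, so those were not run. With 2 libraries, H2-K1, Nlrc5 and Cd74 rest on under 70 counts each per library, which limits their precision.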

Other observations

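The spacing of boxes seen upstream of H2-D1, H2-K1 and B2m, TGACG followed after 20 bases by ATTGG, was present on either strand in windows of 26 of 27025 genes with a RefSeq window. A symbol match in the gene tables was found for 22 of them, and 14 reached 1 TPM in each library, beside 42.5% of protein-coding and 24.2% of all annotated genes; the 14 include B2m and H2-D1, in whose windows the pattern was noticed. Besides these 3, only H2-M3 of the lists used here was among the 26, with 0.06 TPM in replicate 1 and 0 in replicate 2. Of the 3 genes with H2 symbols 1 reached 1 TPM in both libraries, H2-D1. Other genes with the pattern included Hnrnpf, an RNA-binding protein gene, at 579 and 554 TPM, and Xpnpep1 at 262 and 261 TPM, while Ibsp, a bone matrix gene, had 0.02 and 0 TPM in replicates 1 and 2. The genes of this paragraph outside the lists were named after their values were seen.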
